A study of Mus musculus with 10 samples.

Results

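Many genes can end their mRNA at more than 1 place, and tandem polyadenylation sites are ends that lie one after the other in the same last exon. The segments described here each run up to 1 such end, from the end before it where there is one, and are at least 200 nt long. There are 13189 of them among the 22694 tandem polyadenylation segments in the splicing table, and among its 167895 events of all types. They belong to 7612 genes, and 12588 of them lie in protein-coding genes. The members were chosen by event type and length alone, and their use in the strains played no part in the choice.

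The samples are islets of 5 NZO mice (strain NZO/HiBomDife), which are obese and prone to diabetes, and of 5 B6-ob/ob mice (C57BL/6J carrying Lep ob/ob), which are obese for lack of leptin and resistant to diabetes. All were males and were kept on a high-fat diet without carbohydrate until 18 weeks of age, and then received carbohydrate for 2 days. RNAseq was made from each mouse, but the values used here are pooled per strain. No comparison below therefore has a replicate check, a standard deviation or a p-value, the depth behind each value is unknown, and a difference describes these pools. The strains differ in their whole genome, and this cannot be told apart from diabetes susceptibility. The labels give the source as pancreas and the study's methods as isolated islets. Ins2, an insulin gene, took 18.3% of the summed mean normalized counts, while the 6 acinar markers averaged 88.4 to 402 normalized counts. These means span both strains, so the cell makeup of each strain was not compared, and in bulk RNA fewer cells of a type and less RNA per cell cannot be told apart.

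Pre-mRNA is cut and given its poly(A) tail by a complex that includes CPSF, which recognizes the hexamer AATAAA or a close relative upstream of the cut, and CstF and CFIm, which bind other elements nearby. Ending at a proximal site gives a short 3' untranslated region (3'UTR), and ending at a distal site adds sequence that can hold binding sites for miRNAs and RNA-binding proteins. Cells of different types and growth states are known to differ in how they use such sites.

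Use was measured as PSI (proportion spliced in), a fraction from 0 to 1. Contiguous segments of a gene form a set, and there were 8675 sets of at least 2 segments. In 8074 of them the PSI summed to within 0.05 of 1 in both strains. The PSI of a segment was therefore read as the share of a set's transcripts that end where that segment ends. Where the sum is larger this holds only roughly, as in Nudt6, whose set sums to 1.22 in NZO against 1.21 in B6-ob/ob, and in the sets described below for Acox3 (1.13 in NZO), Lyrm1 (1.10 in NZO) and Tcf7l2 (1.07 in NZO). The first segment of a set is shared by all its transcripts and ends at the most proximal site, while the last ends at the most distal. Of the 13189 members, 6799 lie downstream of another site, so their use lengthens the transcript by at least 200 nt. A difference is always NZO minus B6-ob/ob, and the limit of 0.1 for an absolute difference is that of the study, which combined it with a probability not used here.

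The sites of the genes on which the results turn are shown as the last 30 nt before the end, 5' to 3'. Capitals mark the last AATAAA, or the last ATTAAA where there is no AATAAA. The mm10 coordinates are from the table and the sequence is from GENCODE M21 transcripts. Golga5 encodes a golgin of the Golgi apparatus and Sgk1 a serum- and glucocorticoid-induced kinase. Both are shown because their ends lie 2 nt apart behind 1 shared AATAAA. In Golga5 an ATTAAA, left in lower case, stands directly before that AATAAA.
Golga5 proximal, chr12:102497876-102497905, plus strand: gattaaaAATAAAaagatttcttttttaat
Golga5 distal, chr12:102497878-102497907, plus strand: ttaaaAATAAAaagatttcttttttaataa
Sgk1 proximal, chr10:21999862-21999891, plus strand: aattttggtttgcAATAAAatcttgaaaac
Sgk1 next, chr10:21999864-21999893, plus strand: ttttggtttgcAATAAAatcttgaaaacta
In these pairs the AATAAA in capitals begins 23 and 25 nt before the end in Golga5 and 17 and 19 nt in Sgk1.

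Stxbp3 (Munc18c, a partner of syntaxins in vesicle fusion), Atg4b (a protease that processes LC3 in autophagy), Sel1l (a part of ER-associated degradation), Creb1 (the cAMP-responsive transcription factor) and Hdac1 (a histone deacetylase) are shown because the competing ends are further apart and differ in their hexamers. The ends shown lie 164 nt apart in Hdac1 and over 1000 nt apart in the others.
Stxbp3 proximal, chr3:108825618-108825647, minus strand: tattAATAAAcgttttcctgtgttctacta
Stxbp3 distal, chr3:108824533-108824562, minus strand: gcaagccaggcctatatagtaagactgtct
Atg4b proximal, chr1:93787870-93787899, plus strand: tgccaagtgctgttcacctgtgccacctct
Atg4b distal, chr1:93790581-93790610, plus strand: ataaataAATAAAgactgtctcactatgta
Sel1l proximal, chr12:91808643-91808672, minus strand: aaacattaggaaATTAAAgcagttacaccc
Sel1l distal, chr12:91806043-91806072, minus strand: cttgtgaAATAAAgaccccctctctggtta
Creb1 middle, chr1:64597542-64597571, plus strand: tgtgaatgttccaaaaactacttccacttc
Creb1 distal, chr1:64604519-64604548, plus strand: aatttcaAATAAAtggaatcataatgtgta
Hdac1 proximal, chr4:129516268-129516297, minus strand: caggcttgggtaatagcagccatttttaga
Hdac1 distal, chr4:129516104-129516133, minus strand: tgtAATAAAacagctcatttctataccctc
The distal ends of Atg4b, Sel1l, Creb1 and Hdac1 carry AATAAA, whereas in Stxbp3 only the proximal end does. The 30 nt before the proximal ends of Atg4b and Hdac1 and the middle end of Creb1 hold neither hexamer.

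How far the ends look like polyadenylation sites was examined over all members, since the segments come from an annotation. The site of 13128 members (99.5%) coincided with the end of a GENCODE transcript of the same gene. AATAAA or ATTAAA, searched on the transcript strand, stood in the last 40 nt of 55.9% of them, against 2.88% for 40 nt in the middle of the same segments and 52.7% for the ends of shorter segments. AATAAA alone was found at 43.8% of the ends, and its first base lay a median of 22 nt before the end (quartiles 19 and 25 nt). The share with either hexamer was 46.3% for first, 55.2% for middle and 70.3% for last segments. It was 6.27% for the 303 members whose end belongs only to transcript models marked in GENCODE as lacking a found mRNA end.

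**Figure D1:**
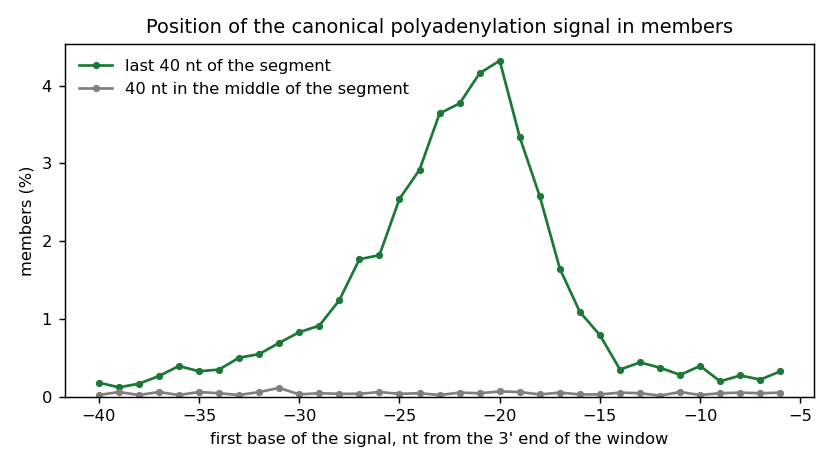
Position of AATAAA, if present, within 40 nt windows of the members. The horizontal axis is the distance of the hexamer's first base from the window's 3' end in nt and the vertical axis is the percentage of members. The green line (last 40 nt of each segment) peaks close to 20 nt before the end, and the grey line (40 nt in the middle of the segment) stays near 0.

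The hexamers also went with the level of use. Members ending in AATAAA had a median PSI equal to 0.679 in NZO against 0.674 in B6-ob/ob, and those with ATTAAA 0.542 in NZO against 0.522 in B6-ob/ob. A single-base variant of AATAAA, from a list of 9, went with a median PSI equal to 0.329 in NZO against 0.328 in B6-ob/ob. Where none of these was present, the median was 0.107 in NZO against 0.133 in B6-ob/ob. This order, from AATAAA down to none, was the same in both strains. Place in the set was not held fixed. Last segments, which more often had a hexamer, also had the higher median PSI in NZO (0.713, against 0.299 for first segments).

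The first question was how often the strains used these sites differently. The absolute difference was over 0.1 for 4078 members (30.9%), of which 1977 were higher and 2101 lower in NZO. Over all tandem polyadenylation segments this share was 29.4% (14.8% higher and 14.7% lower in NZO), for segments under 200 nt it was 27.4%, and over events of all types 8.73%. Long segments thus stood near the background of their own event type. Among the other event types the share was 1.48% for cassette exons, 11.5% for retained introns, 9.81% for alternative last exons and 23.3% for tandem transcription starts. The median absolute difference was 0.043 for members and 0.035 for all tandem polyadenylation segments.

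Large differences were few. Over 0.5 there were 204 members (99 higher and 105 lower in NZO), and the background of 1.55% for all tandem polyadenylation segments was equal to their own share. Over 0.8 there were 19 (0.144%), with 13 higher and 6 lower in NZO, against 29 (0.128%) of all tandem polyadenylation segments, with 16 higher and 13 lower. A PSI over 0.5 in only 1 of the strains, together with a difference past the limit, was found for 1021 members in 818 genes (7.74%), near the 7.67% of all tandem polyadenylation segments. Of these members 504 were over 0.5 only in NZO and 517 only in B6-ob/ob islets. A PSI over 0.8 in NZO and under 0.2 in B6-ob/ob islets was found for 27 of the 13189 members, and the opposite for 16. These were not counted over all tandem polyadenylation segments, so no direction particular to long segments is read from them.

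The share past the limit went with the expression of the gene. It was 45.1% at a mean normalized count between 10 and 100, 33.1% between 100 and 1000 and 23.4% from 1000 up. Genes with a member past the limit had a median of 619 normalized counts, against 934 for genes whose members were all within it. The part of read depth in the differences was not tested, and the genes named below have a mean of at least 100. By length, 29.6% of members under 500 nt and 30.7% of those of 2000 nt or more were past the limit. At the edge of the length rule, 5 of the 23 segments of exactly 200 nt were past the limit, with differences from -0.189 to 0.211, and 5 of the 14 segments that fell 1 nt short of it, with differences from -0.666 to 0.436. By chromosome, leaving out the 12 members on Y, the share lay between 26.6% (chromosome 1) and 36.7% (chromosome 19).

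The second question was which end of a set the strains favoured. Last segments were more often higher in NZO: 735 were higher and 444 lower, among 4439. First segments were more often lower, with 878 higher and 1208 lower among 6350, and so were middle segments, with 360 higher and 445 lower among 2360. Where the mean normalized count was 100 or more, the last segments split into 560 higher and 285 lower in NZO, and the first into 637 higher and 958 lower. Since PSI sums to about 1 within most sets, these counts are not independent of each other. Segments under 200 nt were split the same way, with 757 last segments higher and 530 lower in NZO.

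**Figure D2:**
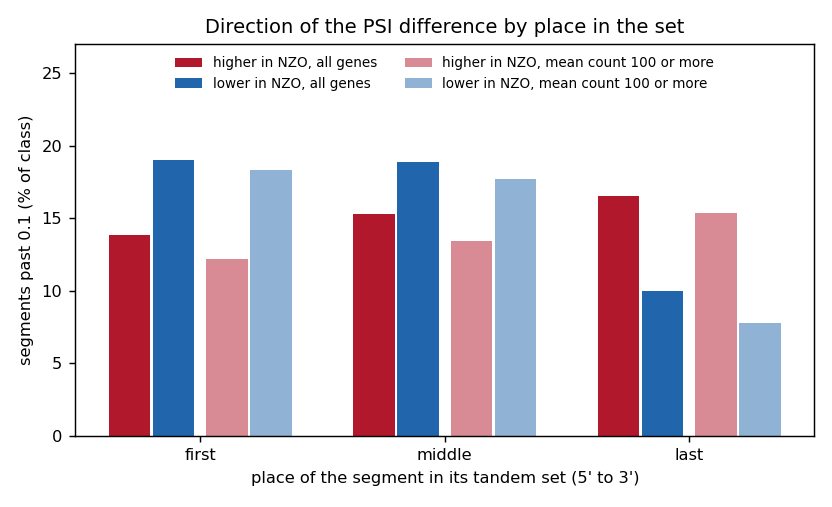
Percentage of first, middle and last members with a PSI difference over 0.1, for all genes (solid) and for genes with a mean normalized count of 100 or more (pale). Red bars count segments higher in NZO and blue bars segments lower in NZO, relative to B6-ob/ob. Among last segments the red bar is the taller one (735 higher and 444 lower, all genes), and among first and middle segments the blue bar is.

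The tilt held for ends with and without a canonical hexamer, though with different sizes. Of last segments with AATAAA or ATTAAA, 541 were higher and 291 lower in NZO, and of those with neither, 194 were higher and 153 lower. Of first segments, 435 were higher and 629 lower with a hexamer, and 443 higher and 579 lower without. Among members that lie downstream of another site, 70.3% of those higher and 63.0% of those lower in NZO had a hexamer. Their other features were close. The median length was 950 nt for those higher and 862 nt for those lower in NZO, the median GC content 43.1% and 44.0%, and the median density of ATTTA, the core of AU-rich elements, 1.41 and 1.26 per kb. Members downstream of another site counted 1095 higher and 889 lower in NZO. By length they split into 301 higher and 264 lower under 500 nt, 266 and 234 from 500 nt, 298 and 238 from 1000 nt, and 230 and 153 from 2000 nt.

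Median use was close in the strains. The median PSI of last segments was 0.713 in NZO against 0.679 in B6-ob/ob, and that of first segments 0.299 in NZO against 0.324 in B6-ob/ob. The last segment held more than 0.5 of its set in 61.4% of cases in NZO against 60.7% in B6-ob/ob. The balance of other event types varied: of the retained introns past the limit 494 were higher and 182 lower in NZO, and of the cassette exons 538 were higher and 1102 lower, whereas tandem transcription starts (2288 higher and 2285 lower) and alternative first exons (96 higher and 92 lower) were even.

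**Figure D3:**
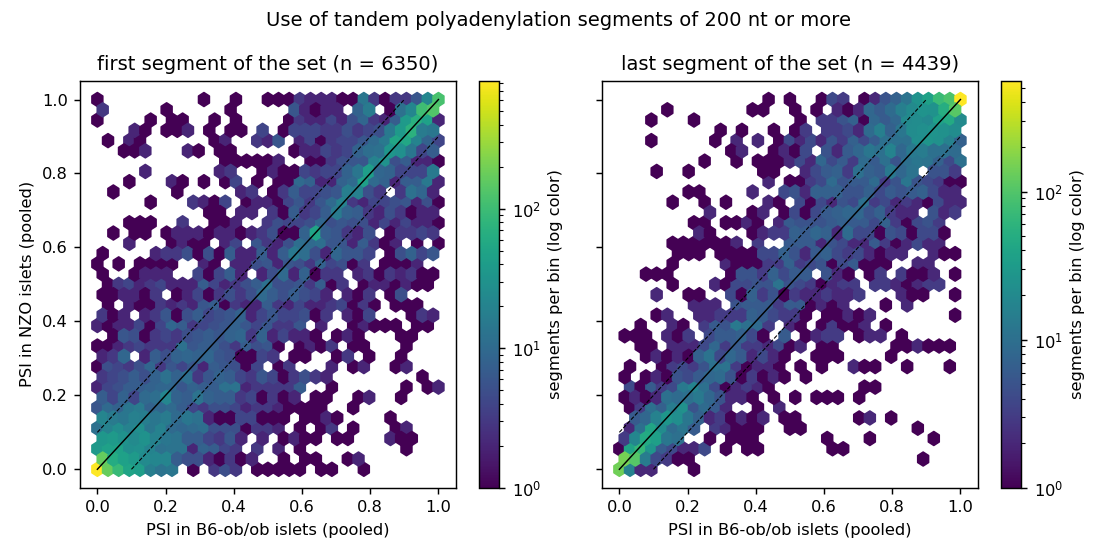
PSI of each first (left) and last (right) member in NZO (vertical axis) and B6-ob/ob islets (horizontal axis), as the number of segments per hexagonal bin on a log color scale. The solid line marks equal use and the dashed lines a difference of 0.1. The densest bin of the 6350 first segments lies near 0 in both strains and that of the 4439 last segments near 1, with wide scatter between.

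To express the differences in nucleotides, the mean position of the 3' end was taken per gene as the distance of each end from the most proximal one, weighted by its PSI. Where a gene had several sets, the one spanning the most nucleotides was used. This set can lie in a noncoding transcript, as in Itch, Nsd1, Cstf3 and Tsc1 below, so a difference need not concern the coding mRNA. Of 7989 genes, 1023 ended over 100 nt further downstream in NZO and 640 over 100 nt further upstream. These make 20.8% of the genes in either direction and 12.8% downstream. Of the genes past 100 nt, 61.5% were longer in NZO. Where the mean normalized count was 100 or more, this was 64.7%, with 807 longer and 441 shorter. The median size past 100 nt was 225 nt. Among the 5379 genes whose sites lie 200 nt or more apart, 47 were over 1000 nt longer and 28 over 1000 nt shorter in NZO. In the 2485 genes with a hexamer before every site of the set, 131 were longer and 99 shorter, a smaller imbalance of 57.0%.

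**Figure D4:**
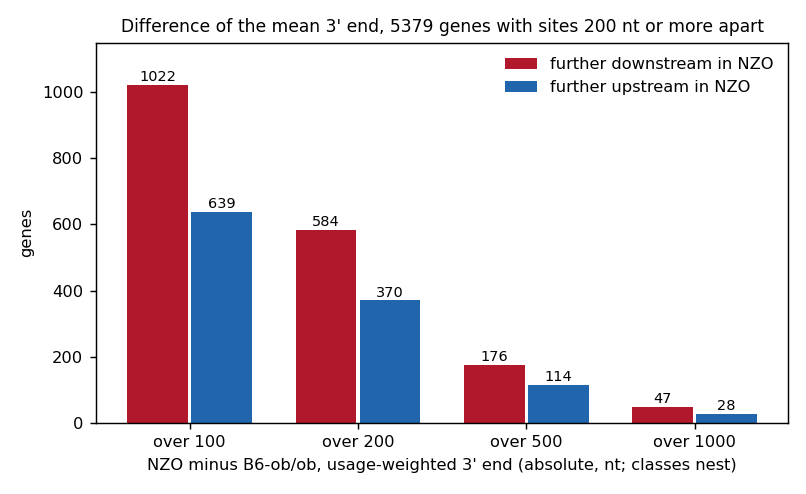
Number of genes whose usage-weighted 3' end lay further downstream (red) or upstream (blue) in NZO relative to B6-ob/ob by more than 100, 200, 500 or 1000 nt, among 5379 genes with sites 200 nt or more apart. Each class includes those to its right. Longer genes outnumber shorter ones in each class, from 1022 against 639 at 100 nt to 47 against 28 at 1000 nt.

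The next question was how far apart the competing ends lie. For each member past the limit, the counterpart is the segment of its set with the largest difference in the opposite direction. It ended within 24 nt of the member's own end for 1130 of 4070 members (27.8%), and within less than 10 nt for 904. For 2608 members (64.1%) it ended 200 nt or more away. Among the 204 members with a difference over 0.5 the counterpart was within 24 nt for 83 (40.7%) and 200 nt or more away for 90 (44.1%). So a long segment past the limit does not by itself mean a long change of the transcript: a long first segment competes with whatever site comes next. Members whose set has its closest sites less than 10 nt apart were past the limit in 34.8% of cases, against 28.3% where all sites are 200 nt or more apart. With ends within 24 nt of each other merged and their PSI summed, 3102 of 11362 segments of 200 nt or more (27.3%) were past the limit, with 890 last segments higher and 511 lower in NZO. This leaves out the 1810 members in sets whose sites all lie within 24 nt, of which 41.8% were past the limit before merging.

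The members with the largest differences were mostly of the close kind. The 12 genes with the largest difference in each direction, at 100 normalized counts or more, held 20 first segments among their 24 members, and for 15 of the 24 the counterpart ended within 24 nt. As these members were ranked by the difference itself, their values are given as a description.

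**Figure D5:**
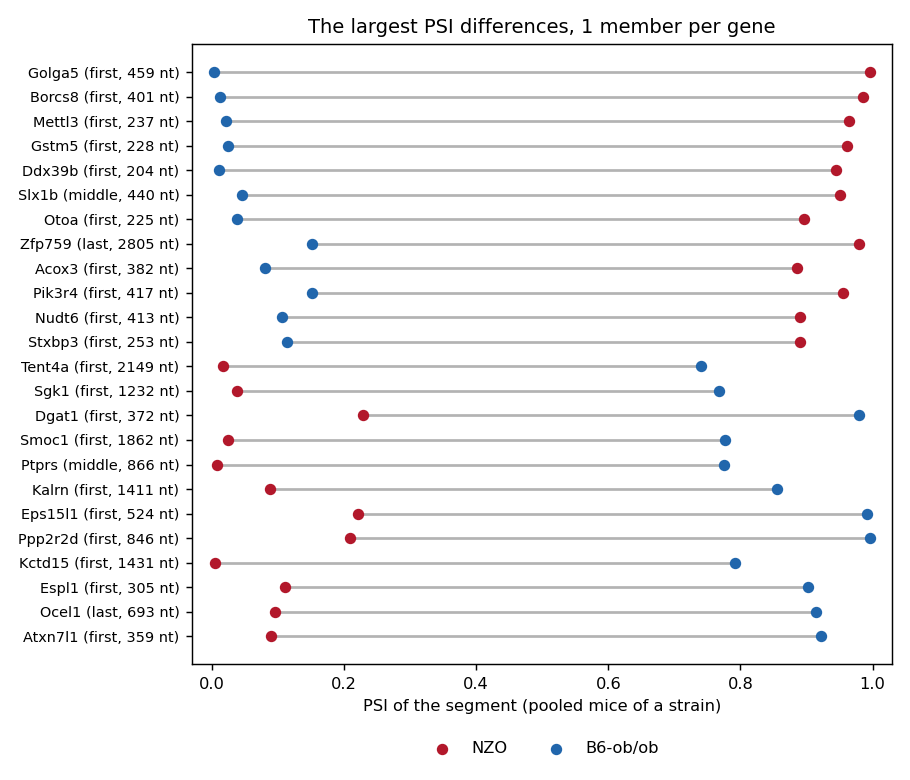
PSI of the 24 members with the largest differences (1 per gene, mean normalized count of 100 or more), in NZO (red) and B6-ob/ob islets (blue), with the place in the set and the length of each. Each line joins the pooled values of the strains for 1 segment. Golga5 at the top has 0.997 in NZO against 0.00306 in B6-ob/ob, and the lower rows hold the members that are lower in NZO.

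Golga5 showed the largest difference. Its first segment, 459 nt long, had a PSI equal to 0.997 in NZO against 0.00306 in B6-ob/ob, and the counterpart that ends 2 nt further had 0.00334 in NZO against 0.997 in B6-ob/ob. Read as a share of transcripts, these PSI values place the pools at different ends in nearly all transcripts, and these ends are 2 nt apart. Whether PSI from RNAseq can resolve ends a few nucleotides apart was not tested, here or in the genes below. The same form was seen in Borcs8, a subunit of the BORC complex that positions lysosomes, with 0.986 in NZO against 0.0126 in B6-ob/ob and a counterpart 14 nt away. Gstm5, a glutathione S-transferase, had 0.962 in NZO against 0.0239 in B6-ob/ob at a distance of 8 nt. Mettl3, the catalytic subunit of the mRNA m6A methyltransferase, had 0.964 in NZO against 0.0208 in B6-ob/ob at 16 nt, in a gene whose set overlaps an exon of another gene. Ddx39b, an RNA helicase of splicing and mRNA export, had 0.945 in NZO against 0.0109 in B6-ob/ob for its most proximal site, and ends 4 and 31 nt further had 0.0507 and 0.0272 in NZO against 0.439 and 0.561 in B6-ob/ob.

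Others among the genes that used the earlier end more in NZO were Otoa (0.896 in NZO against 0.0384 in B6-ob/ob, 6 nt from its counterpart) and Acox3, a peroxisomal acyl-CoA oxidase (0.886 in NZO against 0.0800 in B6-ob/ob, 7 nt). In Pik3r4, the regulatory subunit of the lipid kinase that starts autophagosomes, the counterpart lay 118 nt away, and the first segment had 0.955 in NZO against 0.152 in B6-ob/ob. Nudt6 had 0.890 in NZO against 0.106 in B6-ob/ob, in a set that overlaps an exon of another gene.

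The genes whose first segment was less used in NZO were as close-set. Ppp2r2d, a regulatory subunit of protein phosphatase 2A, had 0.209 in NZO against 0.996 in B6-ob/ob, with the next end 3 nt further. Eps15l1, an adaptor of clathrin-mediated endocytosis, had 0.221 in NZO against 0.991 in B6-ob/ob at 2 nt. Dgat1, which makes triglyceride from diacylglycerol, had 0.228 in NZO against 0.979 in B6-ob/ob at 2 nt. Sgk1 had 0.0382 in NZO against 0.767 in B6-ob/ob for the first of the sites shown above, and 0.962 in NZO against 0.233 in B6-ob/ob for the next. In each of these the PSI placed the main end of the NZO pool a few nucleotides later.

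Further members of this kind were Kctd15 (0.00413 in NZO against 0.791 in B6-ob/ob), Smoc1, a secreted matrix protein (0.0246 in NZO against 0.776 in B6-ob/ob), Tent4a, a noncanonical poly(A) polymerase (0.0168 in NZO against 0.740 in B6-ob/ob), and Atxn7l1 (0.0901 in NZO against 0.921 in B6-ob/ob), all with a counterpart within 5 nt. Ptprs, a receptor tyrosine phosphatase, had 0.00760 in NZO against 0.775 in B6-ob/ob for a middle segment of 866 nt, with a counterpart 2 nt away. In Espl1, the protease separase that opens cohesin, and Kalrn, a guanine nucleotide exchange factor, the counterparts were 45 and 70 nt away. Their first segments had 0.110 and 0.0873 in NZO, against 0.903 and 0.856 in B6-ob/ob islets.

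In 4 of the 24 the ends were 200 nt or more apart. Stxbp3 ended proximally in NZO: its first segment of 253 nt had 0.890 in NZO against 0.113 in B6-ob/ob, and the last one of 1085 nt had 0.111 in NZO against 0.885 in B6-ob/ob. Its mean end lay further upstream in NZO, with a difference of -841 nt. Slx1b, a subunit of a DNA endonuclease, had 0.9505 in NZO against 0.0451 in B6-ob/ob for a middle segment of 440 nt, and 0.0160 in NZO against 0.894 in B6-ob/ob for the last one of 1210 nt. Ocel1 had 0.905 in NZO against 0.0858 in B6-ob/ob for a middle segment of 734 nt, and 0.0948 in NZO against 0.914 in B6-ob/ob for the last one of 693 nt. The sets of Slx1b and Ocel1 overlap exons of other genes. Zfp759, a zinc finger gene, went the other way, with 0.979 in NZO against 0.152 in B6-ob/ob for its last segment of 2805 nt. Its most proximal end, with 0.00903 in NZO against 0.553 in B6-ob/ob, belongs only to transcript models without a found mRNA end and lies in coding sequence.

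The longest displacements of the mean end toward distal sites were over 2000 nt. Ppm1l, a protein phosphatase, had the longest, 2693 nt: its last segment of 7703 nt had 0.947 in NZO against 0.597 in B6-ob/ob, while an end within the coding sequence had 0.0531 in NZO against 0.403 in B6-ob/ob. In Sbno1 (2454 nt) the last segment of 5824 nt had 0.685 in NZO against 0.264 in B6-ob/ob, and it competes with a coding end that belongs only to models without a found mRNA end. Lyrm1 (2431 nt) had 0.908 in NZO against 0.289 in B6-ob/ob for 4327 nt, and Zfp26 (2292 nt) 0.609 in NZO against 0.314 in B6-ob/ob for 6581 nt, both in sets that overlap an exon of another gene. Dgkh, a diacylglycerol kinase, had 0.347 in NZO against 0.141 in B6-ob/ob for 11253 nt of untranslated sequence, a displacement of 2315 nt.

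In the opposite direction Ubn2, a partner of the histone chaperone HIRA, had a difference of -2804 nt, with 0.723 in NZO against 0.998 in B6-ob/ob for a segment of 10184 nt. Slc26a2, a sulfate transporter, had 0.459 in NZO against 0.980 in B6-ob/ob for its last 4303 nt, and its proximal end 0.541 in NZO against 0.0200 in B6-ob/ob. Fam117b had 0.423 in NZO against 0.999 in B6-ob/ob for 3831 nt. Rgs17, an inhibitor of G protein signaling, had 0.524 in NZO against 0.834 in B6-ob/ob for 6506 nt of untranslated sequence. Zfp704 had 0.777 in NZO against 0.938 in B6-ob/ob for 11272 nt, and the collagen receptor Ddr2 had 0.695 in NZO against 0.990 in B6-ob/ob for 5497 nt. The sets of Ubn2, Fam117b, Zfp704 and Ddr2 overlap exons of other genes.

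Gene groups were compared by counts. Of the 7611 gene symbols with a member, 38.7% had at least 1 past the limit. For the cleavage and polyadenylation machinery this was 3 of 10 genes. Cstf2, the RNA-binding subunit of CstF, had 0.795 in NZO against 0.644 in B6-ob/ob for its last segment of 773 nt, which overlaps an exon of another gene. Cstf3, another CstF subunit, had 0.224 in NZO against 0.349 in B6-ob/ob for 1977 nt at the end of a noncoding transcript, and Clp1 had 0.574 in NZO against 0.760 in B6-ob/ob for a first segment with another end 2 nt away. Their members were split into 2 higher and 3 lower in NZO. Of 11 genes on a list of those known for tandem polyadenylation, 2 had a member past the limit, Ccnd2 and Cdk6. Ccnd2, the cyclin D2 of beta cell proliferation, had 0.920 in NZO against 0.473 in B6-ob/ob for its first segment, with the other end 17 nt away. Its partner kinase Cdk6 had 0.969 in NZO against 0.832 in B6-ob/ob for a last segment of 8783 nt. They were also among the 4 of 13 cell cycle genes past the limit. With sites 200 nt or more apart, the mean end was over 100 nt longer in NZO for 1 of 7 machinery genes and shorter for 2. It was longer for 1 and shorter for 4 of 9 genes known for tandem polyadenylation. Of 9 cell cycle genes it was longer for 1 and shorter for 1. Over all 5379 such genes 1022 were longer and 639 shorter.

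Of 34 insulin secretion and exocytosis genes 10 had a member past the limit, with 8 members higher and 4 lower in NZO. Besides Stxbp3 they include Creb1, whose last segment of 6977 nt had 0.821 in NZO against 0.558 in B6-ob/ob. Its middle site, shown above, had 0.180 in NZO against 0.442 in B6-ob/ob. Gipr, the receptor of the incretin GIP, had 0.842 in NZO against 0.510 in B6-ob/ob for its first segment, with the distal end 167 nt away. Of 12 beta cell transcription factors 5 had one. Rfx3, a factor of islet development, had 0.727 in NZO against 0.940 in B6-ob/ob for its last 1698 nt. Tcf7l2, a Wnt effector and type 2 diabetes gene, had 0.163 in NZO against 0.00822 in B6-ob/ob for a middle segment of 514 nt whose counterpart is 23 nt away. Of 29 diabetes genes 9 had a member past the limit. The adipogenic receptor Pparg had 0.0303 in NZO against 0.602 in B6-ob/ob for a first segment whose next end is 5 nt away, and Aktip had 0.602 in NZO against 0.181 in B6-ob/ob for a middle segment of 900 nt that overlaps an exon of another gene. The counterpart of Aktip is 70 nt away, and its mean end differed by 30.04 nt. The share of genes past the limit was 29.4% for insulin secretion, 41.7% for the transcription factors and 31.0% for diabetes genes, beside 38.7% over all genes. Of the 23 insulin secretion genes with sites 200 nt or more apart, 6 were over 100 nt longer and 5 shorter in NZO. For 10 such transcription factors these counts were 1 and 1, and for 19 such diabetes genes 2 and 5. Over all 5379 such genes they were 1022 and 639.

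ER stress and protein folding genes had 6 of 20 past the limit (30%), beside 38.7% over all genes. Of the 16 with sites 200 nt or more apart 3 were over 100 nt longer and 0 shorter in NZO. Over all such genes 1022 of 5379 were longer and 639 shorter. Sel1l used all 3 of its sites in B6-ob/ob islets, whereas NZO islets mostly used the last. The first segment had 0.0151 in NZO against 0.260 in B6-ob/ob, the middle one 0.190 in NZO against 0.297 in B6-ob/ob, and the last, of 578 nt, 0.795 in NZO against 0.443 in B6-ob/ob. Its mean end lay 698 nt further downstream in NZO. Wfs1, the Wolfram syndrome gene, had 0.464 in NZO against 0.728 in B6-ob/ob and Edem1, a lectin of ER-associated degradation, 0.241 in NZO against 0.473 in B6-ob/ob, but their next ends were 3 and 8 nt away.

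Autophagy genes had 7 of 24 past the limit, below the 38.7% over all genes. Of the 13 with sites 200 nt or more apart, 3 were longer and 0 shorter in NZO, beside 1022 longer and 639 shorter of all 5379. Atg4b ended at its distal site in nearly all NZO transcripts, with 0.999 in NZO against 0.498 in B6-ob/ob for 2711 nt. The proximal end had 0.00134 in NZO against 0.501 in B6-ob/ob, and the mean end lay 1356 nt further downstream in NZO. Among 25 genes of insulin and growth factor signaling 8 were past the limit. They include Tsc1, an inhibitor of mTORC1, with 0.915 in NZO against 0.599 in B6-ob/ob for 424 nt at the end of a noncoding transcript. Hras and the phosphatase Ptpn11 had counterparts 4 and 6 nt away. Hras had 0.355 in NZO against 0.602 in B6-ob/ob for its first segment, and Ptpn11 had 0.385 in NZO against 0.684 in B6-ob/ob for 3299 nt. Of the 23 signaling genes with sites 200 nt or more apart, 6 were longer and 3 shorter in NZO.

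Of 52 genes of ubiquitin-mediated proteolysis 19 had a member past the limit (36.5%), near the 38.7% over all genes, with 15 members higher and 15 lower in NZO. Of the 46 with sites 200 nt or more apart, the mean end was over 100 nt longer for 9 and shorter for 2. Among all 5379 such genes it was longer for 1022 and shorter for 639. Itch, an E3 ligase of the Nedd4 family, had 0.784 in NZO against 0.0959 in B6-ob/ob for a segment of 2487 nt, but its competing end is 2 nt away. A second set in a noncoding transcript of Itch had 0.893 in NZO against 0.636 in B6-ob/ob for 2858 nt. This second set alone gave the mean end of Itch, which lay 743 nt further downstream in NZO. Ube2j2, a ubiquitin-conjugating enzyme of the ER, had 0.512 in NZO against 0.131 in B6-ob/ob for its first segment and 0.483 in NZO against 0.0594 in B6-ob/ob for the next of 228 nt. A further end 3 nt downstream took 0.00267 in NZO against 0.809 in B6-ob/ob. Nedd4 had 0.408 in NZO against 0.763 in B6-ob/ob for a first segment in a noncoding transcript, 19 nt from the next end.

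Of 52 SR proteins, hnRNPs and other RNA-binding proteins 26 had a member past the limit (50%), beside 38.7% over all genes. Their members were split into 16 higher and 18 lower in NZO. Of the 43 with sites 200 nt or more apart 9 were longer and 7 shorter in NZO, beside 1022 longer and 639 shorter of all 5379. The 50% was the largest share of genes among the 13 lists. These genes hold 126 members, however, of which 26.98% were past the limit, against 30.9% of all members. G3bp2, a stress granule protein, had 0.326 in NZO against 0.769 in B6-ob/ob for a segment of 1553 nt, with the next end 18 nt away. Tia1, which binds U-rich RNA, had 0.525 in NZO against 0.111 in B6-ob/ob for 459 nt at the end of a noncoding transcript.

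Chromatin modifiers had 16 of 43 genes past the limit (37.2%), beside 38.7% over all genes. Hdac1 used its proximal site mainly in NZO, with 0.561 in NZO against 0.00388 in B6-ob/ob, and its distal site 164 nt further had 0.438 in NZO against 0.996 in B6-ob/ob. Nsd1, a histone methyltransferase, had 0.727 in NZO against 0.155 in B6-ob/ob for the proximal end of a noncoding transcript. Kdm4b, a histone demethylase, had 0.904 in NZO against 0.414 in B6-ob/ob, with ends 6 nt apart. Of 30 endocytosis and vesicle traffic genes 9 (30%) had a member past the limit, with 5 members higher and 7 lower in NZO. Hip1, a clathrin adaptor, had 0.0301 in NZO against 0.640 in B6-ob/ob for a segment of 4338 nt, and Rab22a, a GTPase of early endosomes, 0.203 in NZO against 0.556 in B6-ob/ob for 6294 nt. Their counterparts lay 4 and 28 nt away, and the segment of Rab22a overlaps an exon of another gene, as does that of G3bp2. Of the 29 chromatin modifiers with sites 200 nt or more apart, 7 were longer and 5 shorter in NZO. For 21 such endocytosis genes these counts were 4 and 2, beside 1022 and 639 of all 5379.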

How the data were processed

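RNAseq of islets from 5 NZO and 5 B6-ob/ob mice was quantified by the authors with Whippet (splicing) and with Salmon and DESeq2 (genes), using the mm10 annotation. Versions are not given in the sources used here. The reference follows C57BL/6J, the background of the B6-ob/ob mice, and the effect of this on PSI was not tested. The deposited PSI is a fraction per strain, pooled over mice. The deposited gene table gives a mean signal per gene (counts divided by size factors, over all libraries). The authors' differences, probabilities, fold changes and adjusted p-values, and the 2 tables selected on them, were not used. Members were tandem polyadenylation events of 200 nt or more. Directly adjoining segments of a gene formed a set. Sites were matched to transcript ends of GENCODE M21, which gave sequence, coding parts and overlapping genes. The coordinates are 1-based. Python 3.11.15, numpy 2.4.6 and pandas 2.3.3 were used, and the functions were checked on simulated sets.

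Named genes were, at a mean normalized count of at least 100 and with no provisional symbol, the 12 with the largest difference over 0.1 in each direction, up to 3 per list, and the 6 with the longest displacement of the mean end in each direction. The lists numbered 13. A few named items are not reported here. The members, lists and rules were chosen with earlier results of these data known. Alternatives were other limits, lengths and expression minimums, 1 event per gene, and other windows and hexamers. Leaving out ends near another gene or with no found mRNA end or hexamer, merging close ends, and requiring ends 200 nt or more apart were chosen after seeing the data.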

Additional observations from a re-analysis of the deposited data

How the results depend on the processing

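The values are pooled, so no sample could be left out, and no depth limits the precision in a known way. No paired analysis was possible because the values are pooled per strain and the strains share no replicate numbers. The 4078 members past 0.1 (30.9%) became 1721 past 0.2 and 872 past 0.3. Filters changed the denominator more than the share: 2654 of 7612 with 1 event per gene (34.9%), 2673 of 8449 at a minimum length of 500 nt (31.6%), and 2391 of 7342 with AATAAA or ATTAAA before the site (32.6%). With a mean PSI from 0.1 to 0.9 it was 3727 of 7469 (49.9%), a larger share, as segments near 0 or 1 in both strains are left out. The near-even balance of 48.5% higher in NZO crossed 50% with 1 event per gene (52.3%), with sites within 24 nt merged (51.8%) and with AATAAA or ATTAAA before the site (50.4%); the cause was not tested, and no direction is read from it. The mean end differed by over 100 nt in 1663 genes, by over 200 nt in 954, and by over 100 nt in 230 of those with a hexamer before every site. The share of them longer in NZO was 61.5%, and was 64.7% at a mean normalized count of at least 100 and 57.0% with a hexamer before every site. The share of ends with AATAAA or ATTAAA was 55.9%, 57.6% in 60 nt, 43.8% for AATAAA alone and 67.9% with the variants. The other 24 recomputed values stayed within 1.5 times the reported count, or within the counting interval of the reported share, on the same side of 50%.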
